A study of Mus musculus with 11 samples.

Results

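Mitosis and spindle genes encode the machinery that separates chromosomes and splits the cell, and 42 of them were followed here in a mouse leukaemia line. The members were a fixed list of gene symbols, and 41 of the 42 were measured, each by 1 probe set, among 22180 genes in all. Ccnb1, which encodes cyclin B1, was not analysed here because no probe set carried it as its single symbol in the platform annotation used. The cells were line 720, a line of T-cell acute lymphoblastic leukaemia (T-ALL). Per the labels it came from a Tcf12+/- mouse in which the Lck promoter drives a Tal1 transgene. All groups share that background and an 8 h exposure to 1 of 3 compounds labelled as Runt domain inhibitors. RUNX transcription factors contact DNA through this domain. AI-9-54 was given at 50 µM (4 arrays, replicates 1 to 4), AI-8-45 at 100 µM (4 arrays, replicates 1 to 4) and AI-7-54 at 100 µM (3 arrays, replicates 1, 3 and 4). Vehicle-treated cells were not analysed here, and every difference below is between 2 compounds. The compounds carry code names only, and AI-9-54 differs from both others in compound and dose together, which cannot be told apart. Results describe 1 cell line, and only live cells were collected after treatment, per the labels.

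Entry into mitosis is driven by the kinase CDK1 bound to cyclin B, and exit by the anaphase-promoting complex, which marks cyclins and securin for destruction. Most genes of this machinery are transcribed late in the cell cycle, so their RNA is low in resting cells and high in cells about to divide. In resting and early-cycle cells the DREAM complex, built on E2F4 or E2F5, a DP partner, a pocket protein and the MuvB core, holds many of them down through a promoter element called the cell cycle genes homology region (CHR). Later, B-MYB and FOXM1 join the MuvB core and activate the same genes, and the factor NF-Y binds CCAAT boxes in many of their promoters. In RNA from bulk cultures, fewer cells in mitosis and less of an RNA per cell cannot be told apart.

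Promoter sequence was examined because the members share a mode of control that the list itself did not use. RefSeq promoter windows (GRCm38.p6), running from 250 bases before to 50 bases after the annotated start, matched 34 of the 41 measured members by symbol (37 windows), and the other 7 were Aurkb, Ccna2, Cdc25c, Incenp, Kif20a, Spc24 and Tpx2. The CHR was searched as TTTGAA or TTCGAA and the CCAAT box as CCAAT, on both strands. None of these motifs contains another, and TTCGAA reads the same on both strands. A CHR letter match was present in 30 of the 37 members' windows (81.1%), against 19.2% of all 32851 windows. A CCAAT match was likewise present in 30 of 37 (81.1%), against 37.4% of all windows. More than 1 CCAAT match was found in 51.4% of the members' windows and 11.7% of all windows, and both kinds of match in 73.0% and 7.5%. Of the 34 genes, 24 had both kinds, and Birc5, Mad2l1, Nuf2 and Pttg1 had neither.

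The stretches below run from 100 bases before to 30 bases after the annotated start, 5′ to 3′ along the gene's strand. They belong to 5 of the 6 members called lower for AI-9-54 against AI-8-45, and to Ndc80, the 1 member called higher for AI-9-54 against AI-7-54. Capitals mark CHR or CCAAT letter matches on either strand.
Cdc25b: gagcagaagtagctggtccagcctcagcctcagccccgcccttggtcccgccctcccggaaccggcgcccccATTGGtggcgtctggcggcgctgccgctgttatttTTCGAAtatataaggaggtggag
Plk1: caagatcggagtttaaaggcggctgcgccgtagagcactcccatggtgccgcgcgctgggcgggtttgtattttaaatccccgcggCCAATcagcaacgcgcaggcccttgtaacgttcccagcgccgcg
Hmmr: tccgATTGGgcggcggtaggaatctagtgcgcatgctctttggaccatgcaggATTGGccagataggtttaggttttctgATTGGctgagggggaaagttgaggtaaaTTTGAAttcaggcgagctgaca
Ube2c: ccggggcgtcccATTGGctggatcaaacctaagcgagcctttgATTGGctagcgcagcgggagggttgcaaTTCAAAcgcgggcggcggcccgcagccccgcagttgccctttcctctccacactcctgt
Ccnb2: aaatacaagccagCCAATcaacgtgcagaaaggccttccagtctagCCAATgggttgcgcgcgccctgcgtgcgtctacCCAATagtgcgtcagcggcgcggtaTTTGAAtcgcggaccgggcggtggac
Ndc80: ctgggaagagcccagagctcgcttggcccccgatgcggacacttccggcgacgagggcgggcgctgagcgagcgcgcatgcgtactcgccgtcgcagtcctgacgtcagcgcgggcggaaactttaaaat

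These stretches lie at chr2:131186848-131186977 on the plus strand for Cdc25b, chr7:122159335-122159464 plus for Plk1, chr11:40733408-40733537 minus for Hmmr, chr2:164769829-164769958 plus for Ube2c, chr9:70421525-70421654 minus for Ccnb2 and chr17:71526828-71526957 minus for Ndc80. In the stretches shown, Cdc25b, Hmmr and Ccnb2 share a layout in which 1 or 3 CCAAT matches precede a CHR match just after the start. In the Ube2c stretch the CHR match lies before the start and downstream of both CCAAT matches. The whole windows of Hmmr and Ube2c hold more CCAAT matches upstream, and that of Ccnb2 holds another CHR match at positions -167 to -162. Plk1 shows 1 CCAAT match, and its CHR match lies past the stretch shown, at positions 31 to 36. Ndc80 had no CCAAT match in its whole window, and its CHR match was on the opposite strand at positions 30 to 35. A letter match is a description and not a binding site.

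**Figure D1:**
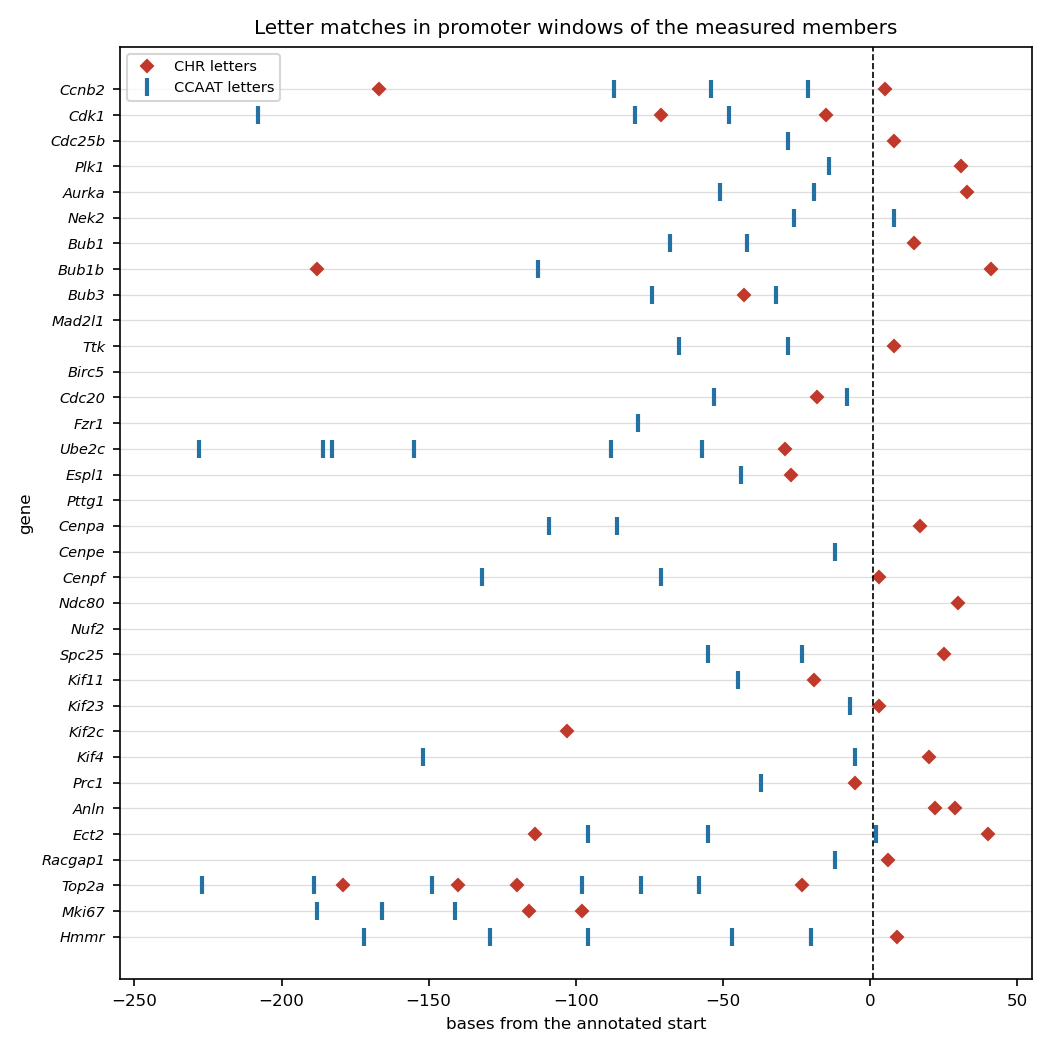
Positions of CHR (diamonds) and CCAAT (bars) letter matches in the promoter windows of 34 measured members, in bases from the annotated start (dashed line), 1 window per gene. CCAAT matches mostly sit before the start, and Birc5, Mad2l1, Nuf2 and Pttg1 have no match of either kind.

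Values were log2 signals, and array medians ran from 6.61 to 6.68. Pairwise array correlations ran from 0.9941 to 0.9986, and no 2 arrays held the same values. T-lineage markers had a median level of 11.4 (8 of 11 measured, percentile 96.9 of all genes). The medians were 5.86 for B-lineage, 6.36 for myeloid, 7.36 for erythroid (2 of 6 measured) and 6.94 for stromal and endothelial markers. None of these 4 other lists had a gene called by limma in any comparison, and at an unadjusted p under 0.05 no list had more than 2. Of all genes, 3.68% were called for AI-9-54 against AI-8-45, 18.2% for AI-9-54 against AI-7-54 and 8.79% for AI-8-45 against AI-7-54. T-lineage markers were called lower in 3 of 8, 4 of 8 and 2 of 8 in the same order, against 1.76%, 9.21% and 5.19% of all genes. Mean T-lineage levels ran from 10.66 to 10.81 on AI-9-54 arrays, from 10.80 to 10.97 on AI-8-45 arrays and from 10.94 to 11.15 on AI-7-54 arrays. The part of this marker difference in the results below was not tested.

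All measured members gave signals above the median gene. Their mean levels over the 11 arrays ran from 8.51 for Pttg1, the gene of securin (percentile 67.3 of all genes), to 12.16 for Ect2, which encodes an activator of RhoA at the cleavage site (percentile 99.2). Signals of different probe sets are not on a common scale, so these levels describe brightness and not RNA amounts.

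The members differed between replicate numbers as well as between compounds. In every compound they were lower in replicates 1 and 2 than in replicates 3 and 4, and the labels do not say what the replicate numbers stand for. The fitted difference, replicates 1 and 2 minus replicates 3 and 4, was below 0 for all 41 members, against 51.9% of all genes. Its median was -0.25 over the members and 0.00 over all genes, and it ran from -0.42 for Cdc25c to -0.09 for Bub3. This pattern led to the replicate set being used in the model, so it is given as a description with no test.

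The 5 members that shifted most between the replicate sets were Cdc25c, Cdc25b, Kif2c, Aurka and Hmmr. Cdc25c, whose product is a phosphatase that activates CDK1, ran from 9.17 to 9.54 on the 5 arrays of replicates 1 and 2 and from 9.68 to 9.97 on the 6 arrays of replicates 3 and 4. Kif2c, a kinesin that takes microtubules apart at their ends, ran from 10.49 to 10.81 and from 10.92 to 11.16 in the same order. Aurka, the Aurora A kinase of the spindle poles, ran from 10.58 to 10.84 and from 10.9999 to 11.28. For these 3 genes the 2 sets did not overlap, whereas for Cdc25b the ranges were 9.26 to 9.66 in replicates 1 and 2 and 9.63 to 9.98 in replicates 3 and 4. In all, 29 of the 41 members had all 5 arrays of replicates 1 and 2 below all 6 of replicates 3 and 4, against 1.56% of all genes. Within every compound separately, 34 of 41 were lower in replicates 1 and 2 without overlap, against 5.64% of all genes.

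The shift between replicate sets was present in all 3 compounds. The median member difference between the sets was -0.28 after AI-9-54, -0.22 after AI-8-45 and -0.27 after AI-7-54, with 41 of 41 members below 0 in each. A test of whether the compound differences themselves changed between the replicate sets called 0 members in each comparison by limma (lowest adjusted p 0.792 for AI-9-54 against AI-8-45, 0.497 for AI-9-54 against AI-7-54 and 0.997 for AI-8-45 against AI-7-54). At an unadjusted p under 0.05 it found 1, 1 and 0 members. The share of all genes that this test called is not given here, and AI-7-54 has 1 array in its smaller replicate set. These counts therefore cannot show that the compound differences were the same in the sets. Other mitosis genes showed the shift between replicate sets in 94 of 104 (median -0.18, 35 with the sets separated), and DNA replication genes in 40 of 40 (median -0.14, 3 separated). Regulators of mitotic genes showed it in 18 of 26 (median -0.10).

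**Figure D2:**
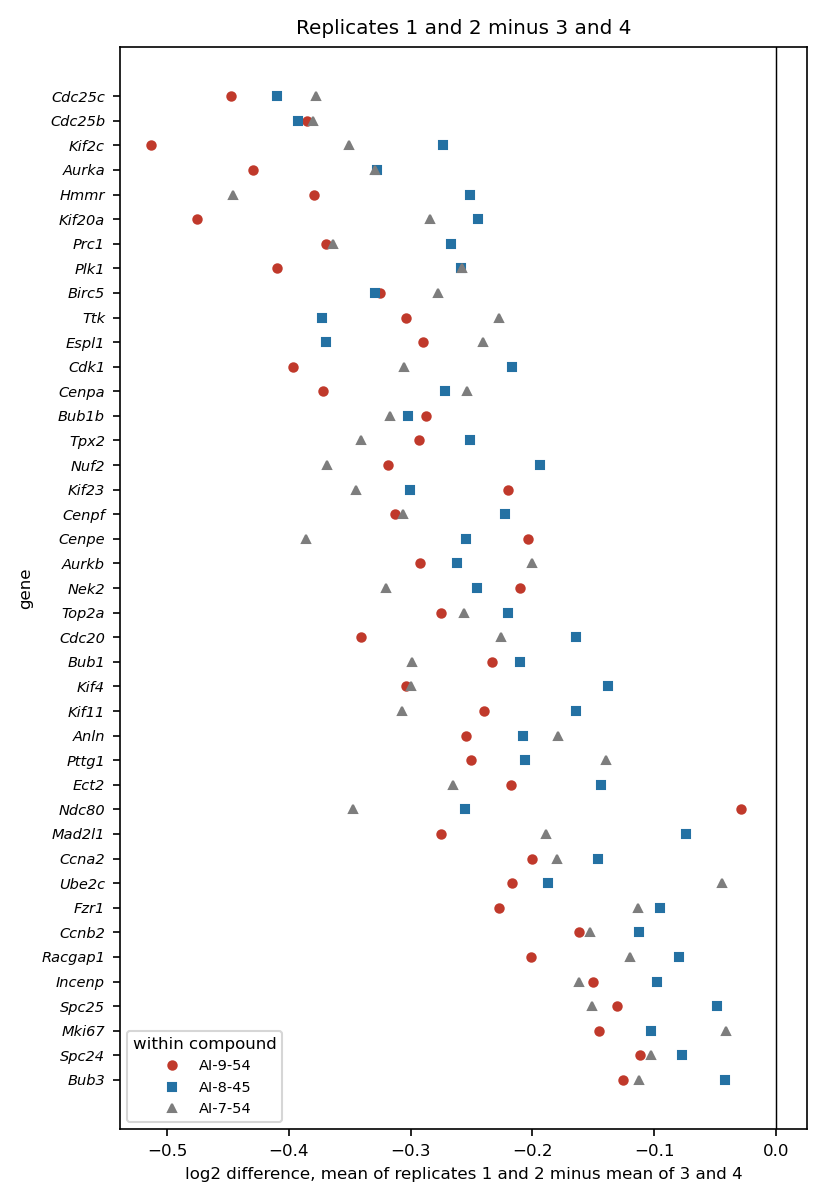
Log2 difference between the mean of replicates 1 and 2 and the mean of replicates 3 and 4 for the 41 measured members, within AI-9-54 (circles), AI-8-45 (squares) and AI-7-54 (triangles), sorted by the fitted difference. Every point lies below 0, and Cdc25c and Cdc25b lie among the lowest in all 3 compounds.

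**Figure D3:**
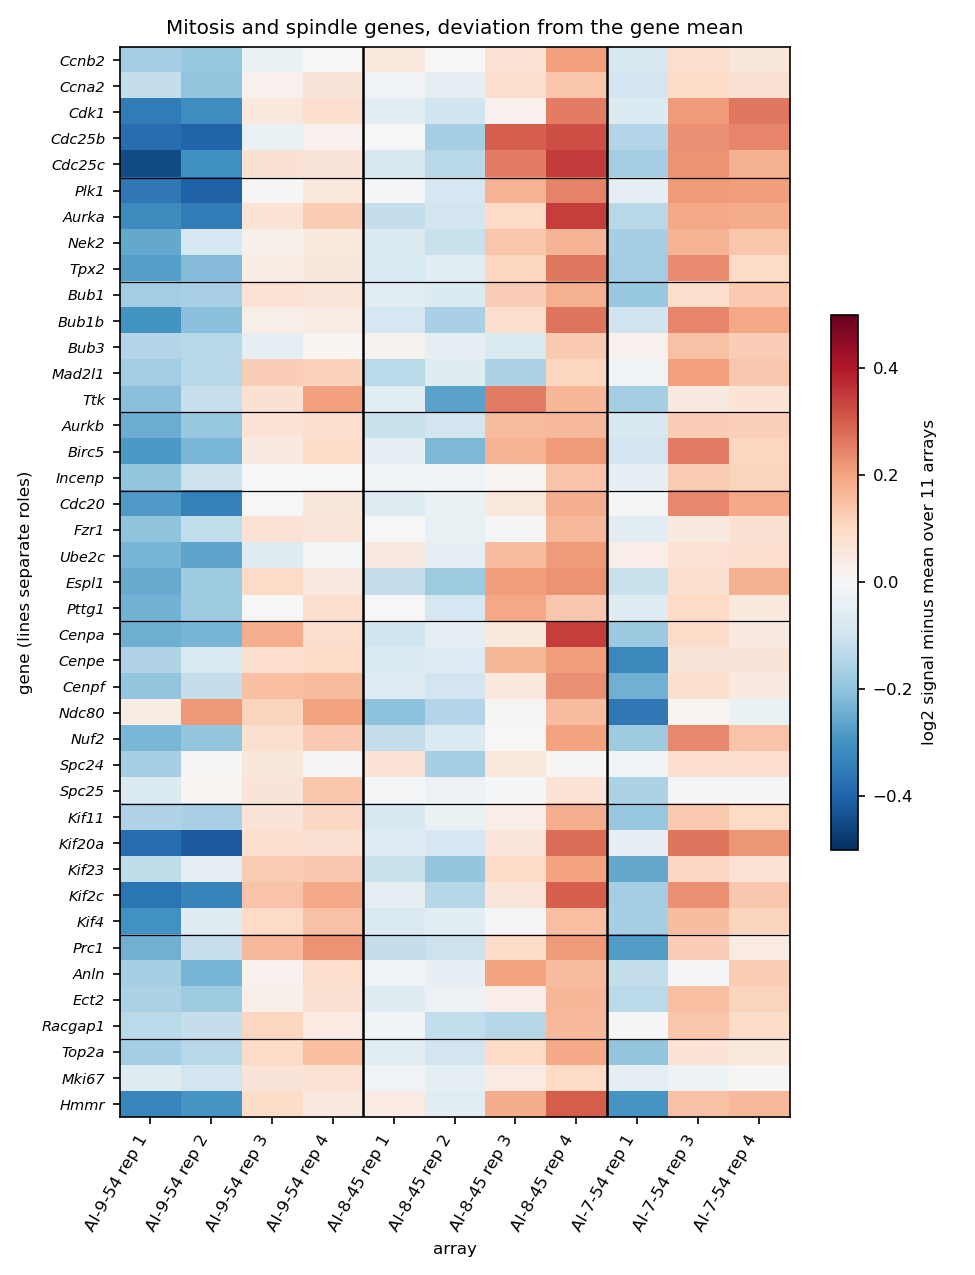
Log2 signal of the 41 measured members on each of the 11 arrays, as the deviation from the gene's mean over all arrays, with genes grouped by role and arrays by compound. Arrays of replicates 1 and 2 are mostly blue and those of replicates 3 and 4 mostly red in every compound, and the bluest are AI-9-54 replicates 1 and 2.

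Compounds were compared in 1 limma model with the replicate set as a factor, and calls were made at adjusted p under 0.05 (Benjamini-Hochberg over all 22180 genes). It is not stated whether replicates were separate cultures. The p-values therefore reflect only how much these arrays vary, and that variation may be technical. Since the replicate set was put into the model because it was seen in these data, the intervals and p-values may be too small. In a model without it, limma called 0 members in each comparison. At an unadjusted p under 0.05 that model gave 4 members for AI-9-54 against AI-8-45, 6 for AI-9-54 against AI-7-54 and 0 for AI-8-45 against AI-7-54, against 11.4%, 24.4% and 16.7% of all genes at that threshold. By adjusted p it called 1.31%, 14.2% and 5.66% of all genes in these comparisons. The 3 comparisons share arrays, so their calls are not independent of each other.

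The comparison at matched doses, AI-8-45 against AI-7-54 at 100 µM, gave 1 call among these genes. Of the 41 members, 1 was called higher and 0 lower (2.44%), against 8.79% of all genes called either way, 3.59% higher and 5.19% lower. At an unadjusted p under 0.05 there were 6 members, all higher, against 9.22% of all genes higher and 20.1% either way. The median difference was 0.04 over the members and 0.00 over all genes. Over the 40 members that were not called, the 95% intervals lay between -0.28 and 0.29. Each interval holds for 1 gene and not for the 40 together, so larger differences could have been missed. In the model without the replicate set, the interval was -0.40 to 0.20 for Kif20a and -0.18 to 0.41 for Hmmr.

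Cenpe, the kinetochore motor that carries chromosomes to the spindle equator, was the member called. It read 10.40, 10.41, 10.64 and 10.68 on the 4 AI-8-45 arrays and 10.15, 10.53 and 10.54 on the 3 AI-7-54 arrays. The 4 AI-8-45 values were higher than the AI-7-54 values of their own replicate set, but the groups overlap when the sets are pooled. The log2 difference was 0.17 ± 0.05 (SE, adjusted p 0.042), and it kept its call in 2 of the 11 fits that left out 1 array. Without AI-7-54 replicate 1 it was 0.11 with an adjusted p of 0.253.

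The other 4 of the 5 members with the largest differences were not called. Hmmr, whose product binds spindle microtubules, differed by 0.17 (95% interval 0.06 to 0.29, adjusted p 0.0699). Mad2l1, the checkpoint protein that holds back anaphase, differed by -0.14 (-0.28 to 0.0054, adjusted p 0.273). Cenpa, the histone H3 variant of centromeres, differed by 0.13 (-0.01 to 0.27, adjusted p 0.311), and Cenpf, a kinetochore protein, by 0.11 (0.01 to 0.22, adjusted p 0.220). Within both replicate sets without overlap, 6 members were higher and 2 lower after AI-8-45, against 11.5% and 13.4% of all genes. By role, the median difference ran from -0.04 for the 5 spindle checkpoint genes to 0.11 for the 7 centromere and kinetochore genes.

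More members were called between AI-9-54 (50 µM) and AI-7-54 (100 µM). After AI-9-54, 9 of 41 members were called lower and 1 higher (24.4%), against 18.2% of all genes called either way, 9.21% lower and 8.99% higher. With only the 11078 genes above the array medians tested, 10 members were called lower and 1 higher, against 39.9% of those genes called either way. The members' median difference was -0.07, against 0.00 for all genes, and 31 of 41 were below 0. Within both replicate sets without overlap, 20 were lower and 7 higher, against 16.3% and 15.8% of all genes. The members called lower encode CDK1 and its activating phosphatases, the polo-like kinase, checkpoint proteins, an activator of the anaphase-promoting complex and its E2 enzyme, and 1 kinesin, and the member called higher encodes a kinetochore subunit.

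Among the CDK1 regulators, Cdk1 read 11.45, 11.49, 11.85 and 11.89 on AI-9-54 arrays and 11.73, 12.02 and 12.06 on AI-7-54 arrays. Cdc25b, a phosphatase that activates CDK1 at mitotic entry, read 9.28, 9.26, 9.63 and 9.68 after AI-9-54 and 9.52, 9.89 and 9.91 after AI-7-54. Cdc25c read 9.17, 9.31, 9.69 and 9.68 after AI-9-54 and 9.44, 9.84 and 9.80 after AI-7-54. In each of these 3 genes the AI-9-54 arrays lay below the AI-7-54 arrays of their own replicate set, and the groups overlap when the sets are pooled. The log2 differences were -0.22 ± 0.06 for Cdk1 (SE, adjusted p 0.0255), -0.24 ± 0.05 for Cdc25b (adjusted p 0.00257) and -0.16 ± 0.05 for Cdc25c (adjusted p 0.0314). The cyclin genes Ccnb2 and Ccna2 were not called, at -0.10 (-0.19 to -0.0037) and -0.05 (-0.14 to 0.04).

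Plk1, the polo-like kinase that acts at centrosomes, kinetochores and the midzone, read 11.45, 11.41, 11.82 and 11.86 after AI-9-54 and 11.76, 12.02 and 12.02 after AI-7-54. Its log2 difference was -0.25 ± 0.05 (adjusted p 0.00338). The other kinase genes Aurka and Nek2, and Tpx2, whose product activates Aurora A, were not called and lay between -0.14 and -0.07.

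Of the 5 spindle checkpoint genes, which delay anaphase until chromosomes are attached, 2 were called lower. Bub1b read 10.28, 10.37, 10.61 and 10.62 after AI-9-54 and 10.48, 10.82 and 10.77 after AI-7-54, a difference of -0.17 (adjusted p 0.0303). Bub3, which brings the BUB proteins to kinetochores, read 11.82, 11.83, 11.92 and 11.98 after AI-9-54 and 11.99, 12.12 and 12.09 after AI-7-54, a difference of -0.16 (adjusted p 0.0455). The Bub3 values of the 2 groups did not overlap. The remaining checkpoint genes Bub1, Mad2l1 and Ttk, a kinase that starts checkpoint signalling, gave -0.02, -0.10 and 0.06. None of the 3 genes of the chromosomal passenger complex (Aurkb, Birc5 and Incenp), which corrects faulty attachments, was called (-0.13 to -0.08).

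Around the anaphase-promoting complex, Cdc20, its mitotic activator, read 11.28, 11.22, 11.56 and 11.62 after AI-9-54 and 11.55, 11.80 and 11.75 after AI-7-54. Ube2c, the enzyme that delivers ubiquitin to it, read 10.53, 10.50, 10.71 and 10.76 after AI-9-54 and 10.80, 10.84 and 10.85 after AI-7-54. The Ube2c values of the 2 groups did not overlap, and the Cdc20 values did not overlap within a replicate set. The differences were -0.24 ± 0.05 for Cdc20 (adjusted p 0.00649) and -0.18 ± 0.05 for Ube2c (adjusted p 0.0219). Fzr1, which activates the same complex after mitosis, Espl1, the protease that cuts cohesin, and Pttg1, its inhibitor, were not called (-0.07 to -0.05).

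Kif20a, a kinesin of the central spindle, read 10.33, 10.29, 10.79 and 10.78 after AI-9-54 and 10.67, 10.98 and 10.93 after AI-7-54. Its log2 difference was -0.25 ± 0.06 (adjusted p 0.0143), and within each replicate set the AI-9-54 arrays were lower. Kif11, which pushes spindle poles apart, Kif23, a midzone motor, Kif2c and Kif4, a chromosome-bound motor, were not called and lay between -0.09 and 0.10.

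Ndc80, which encodes the kinetochore subunit that grips microtubules, was the member called higher. It read 10.93, 11.11, 11.002 and 11.09 after AI-9-54 and 10.53, 10.90 and 10.86 after AI-7-54. All 4 AI-9-54 arrays lay above all 3 AI-7-54 arrays, and the log2 difference was 0.30 ± 0.07 (adjusted p 0.0122). The difference was 0.49 in replicates 1 and 2 and 0.17 in replicates 3 and 4, and without AI-7-54 replicate 1 it was 0.22 with an adjusted p of 0.109. Its partners in the same 4-subunit complex, Nuf2, Spc24 and Spc25, gave -0.08 (-0.20 to 0.05), -0.05 (-0.18 to 0.08) and 0.11 (0.01 to 0.21) and were not called. The other 3 centromere and kinetochore genes, the 4 cytokinesis genes (Prc1, Anln, Ect2 and Racgap1) and Top2a, Mki67 and Hmmr were not called, with differences from -0.08 to 0.10.

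With the replicate number as a block in place of the set, 6 of the 10 calls held in this comparison: Cdc20, Cdc25b, Cdk1, Kif20a and Plk1 lower, and Ndc80 higher. That fit called 14.9% of all genes, 7.48% lower and 7.39% higher. Leaving out AI-7-54 replicate 1 left 3 calls, with 14.3% of all genes called. Leaving out AI-7-54 replicate 3, AI-9-54 replicate 1 or AI-9-54 replicate 3 left 6 each, with 13.9%, 16.7% and 15.3% of all genes called. Cdc20, Cdc25b and Plk1 were called in all 11 fits that left out 1 array.

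Between AI-9-54 (50 µM) and AI-8-45 (100 µM) there were 6 members called lower and 0 higher (14.6%), against 3.68% of all genes called either way, 1.76% lower and 1.92% higher. The 6 were Cdc25b, Plk1, Cdc25c, Hmmr, Ube2c and Ccnb2. At an unadjusted p under 0.05 there were 22 members, of which 21 were lower, against 7.22% of all genes lower and 15.2% either way. The median difference was -0.10 over the members and 0.00 over all genes, and 36 of 41 members were below 0. Taken in the 2 replicate sets apart, the median was -0.12 for replicates 1 and 2, and -0.07 for replicates 3 and 4.

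Cdc25b read 9.28, 9.26, 9.63 and 9.68 after AI-9-54 and 9.66, 9.50, 9.96 and 9.98 after AI-8-45. Its log2 difference was -0.31 ± 0.04 (adjusted p 0.00144), and it was nearly the same in replicates 1 and 2 (-0.31) and in replicates 3 and 4 (-0.32). Cdc25c, the related phosphatase, read 9.17, 9.31, 9.69 and 9.68 after AI-9-54 and 9.54, 9.48, 9.87 and 9.97 after AI-8-45. The AI-9-54 values of both genes lay below the AI-8-45 values within each replicate set, and the Cdc25c difference was -0.25 ± 0.04 (adjusted p 0.00715).

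Ccnb2, which encodes cyclin B2, read 11.76, 11.75, 11.90 and 11.93 after AI-9-54 and 11.98, 11.94, 12.004 and 12.14 after AI-8-45. All 4 AI-9-54 arrays were below all 4 AI-8-45 arrays, the single member for which this was so with the sets pooled, and the difference was -0.18 ± 0.04 (adjusted p 0.0275). Cdk1 and Ccna2, the gene of cyclin A2, were not called, at -0.16 (-0.28 to -0.04, adjusted p 0.163) and -0.10 (-0.18 to -0.02, adjusted p 0.222).

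Plk1 read 11.45, 11.41, 11.82 and 11.86 after AI-9-54 and 11.80, 11.72, 11.98 and 12.06 after AI-8-45, a difference of -0.26 ± 0.04 (adjusted p 0.00748). Ube2c read 10.53, 10.50, 10.71 and 10.76 after AI-9-54 and 10.81, 10.72, 10.92 and 10.98 after AI-8-45, a difference of -0.23 ± 0.04 (adjusted p 0.0115). Hmmr read 8.80, 8.84, 9.22 and 9.18 after AI-9-54 and 9.17, 9.07, 9.32 and 9.43 after AI-8-45, a difference of -0.24 ± 0.05 (adjusted p 0.0184). In all 3 genes the AI-9-54 arrays lay below the AI-8-45 arrays of their own replicate set, by more in replicates 1 and 2 than in replicates 3 and 4.

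Over all members, 16 of 41 were lower after AI-9-54 within both replicate sets without overlap, against 6.36% of all genes, and 0 were higher within both, against 7.67%. None of the 5 checkpoint, 3 passenger complex, 7 centromere and kinetochore, 5 kinesin or 4 cytokinesis genes was called. Their role medians ran from -0.10 for the passenger complex to -0.03 for the centromere and kinetochore genes, and the 95% intervals of all members not called lay between -0.34 and 0.34. Ndc80 was again the highest of them, at 0.19 (0.04 to 0.34, adjusted p 0.178), and Kif20a the lowest, at -0.21 (-0.34 to -0.08, adjusted p 0.0764).

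AI-8-45 replicate 3 stood below its fitted value for 36 of the 41 members, by 0.07 on average, whereas AI-8-45 replicate 1 stood above it for 38 and AI-8-45 replicate 4 for 37. AI-9-54 replicate 1 was below its fitted value for 37 members. Without AI-8-45 replicate 3, 11 members were called for AI-9-54 against AI-8-45 (2.93% of all genes) and 3 for AI-8-45 against AI-7-54 (7.32% of all genes). Without AI-8-45 replicate 1 or 4, or without AI-9-54 replicate 1, 2 or 4, 4 members were called for AI-9-54 against AI-8-45 (2.15% to 2.87% of all genes). Cdc25b, Cdc25c, Plk1 and Ube2c were called against AI-8-45 in all 11 fits that left out 1 array.

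**Figure D4:**
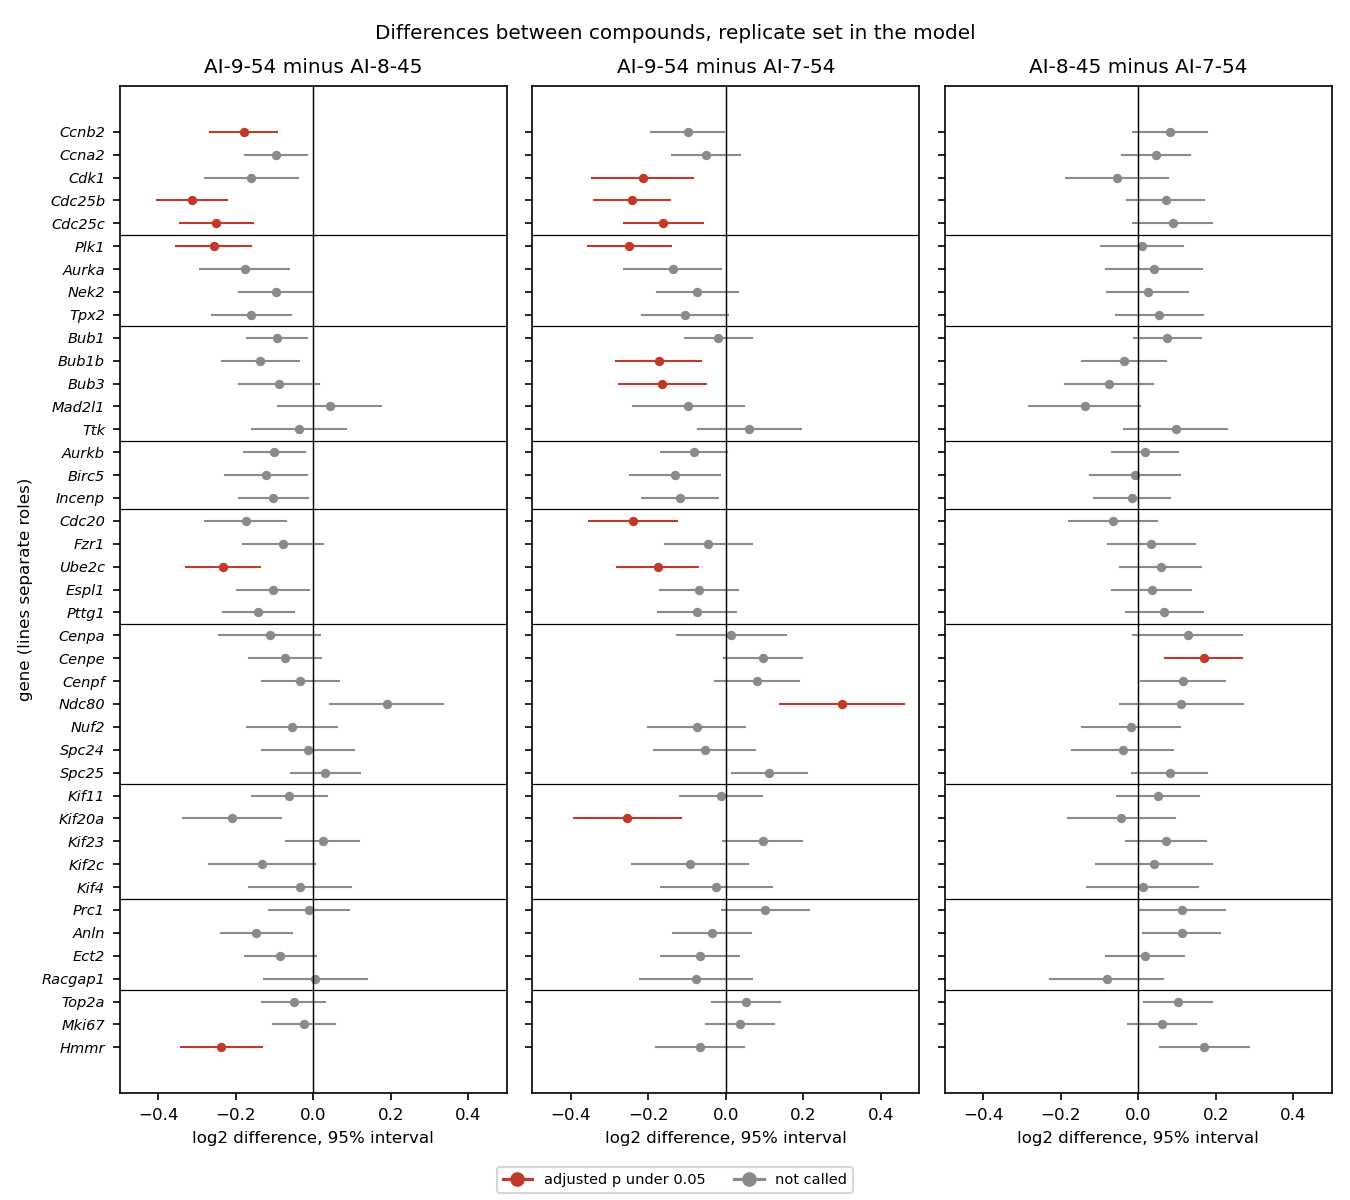
Log2 differences (points) with 95% intervals (bars) for the 41 measured members in the 3 comparisons, with the replicate set in the model and genes grouped by role. Red marks an adjusted p under 0.05, which applies to 6 members for AI-9-54 minus AI-8-45, 10 for AI-9-54 minus AI-7-54 and 1 for AI-8-45 minus AI-7-54.

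**Figure D5:**
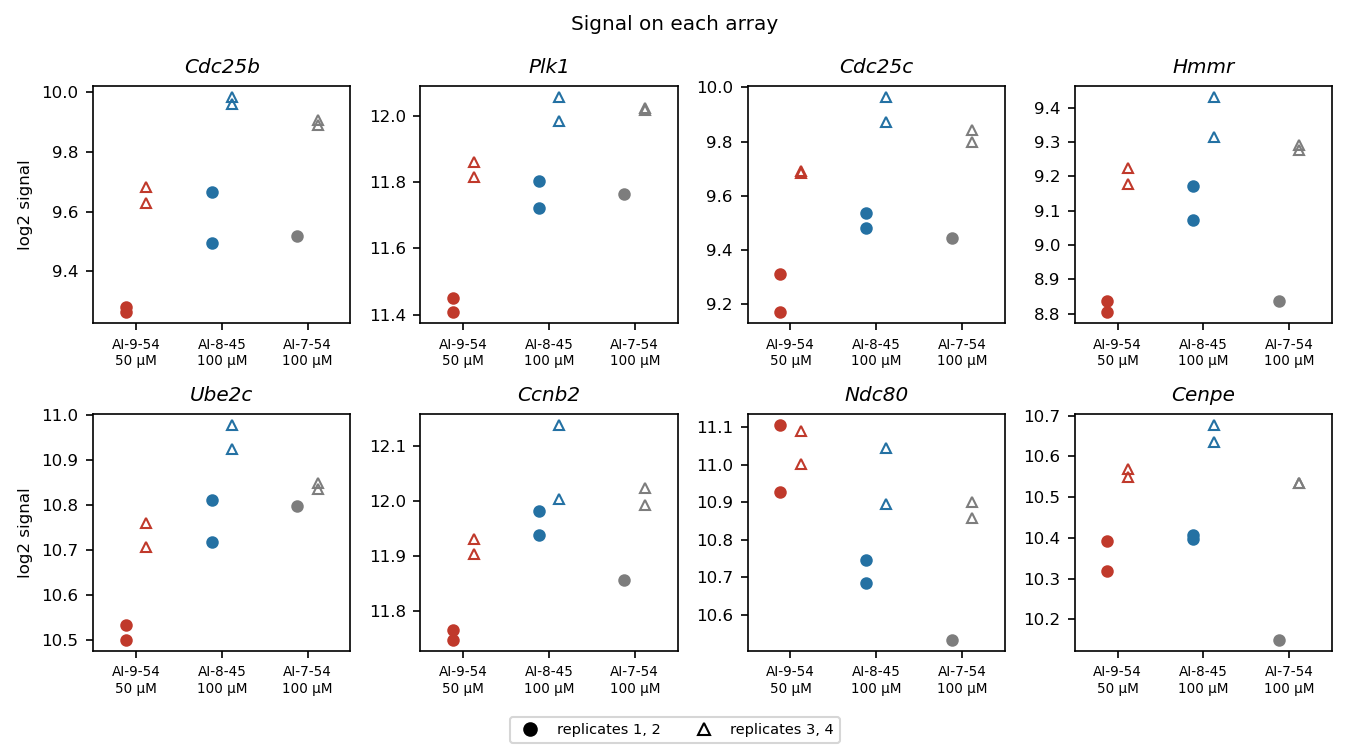
Log2 signal on each array for the 6 members called between AI-9-54 and AI-8-45, and for Ndc80 and Cenpe, with replicates 1 and 2 as filled circles and replicates 3 and 4 as open triangles. Within each symbol the AI-9-54 values of the first 6 genes lie below the AI-8-45 values, while for Ndc80 they lie above the AI-7-54 values.

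A wider list of 104 other mitosis genes differed in both directions. For AI-8-45 against AI-7-54, 8 were higher (7.69%) and 3 lower (2.88%), against 3.59% and 5.19% of all genes. Rcc1, which activates the GTPase Ran on chromatin, was lower (-0.42), as was Trip13 (-0.31), a remodeller of checkpoint proteins. Aspm, a spindle pole protein, was higher (0.29), as was Depdc1a (0.28). For AI-9-54 against AI-7-54, 11 were higher (10.6%) and 18 lower (17.3%), against 8.99% and 9.21% of all genes. Rcc1 was lower (-0.51) and Cenpk, a subunit of the inner kinetochore, was higher (0.42). The tubulin genes Tuba1b (-1.13) and Tuba1c (-0.44) were called lower, although near-identical tubulin copies make their probe sets uncertain. The Tuba1b call was lost with the replicate number as a block (limma adjusted p 0.100), and its difference was -1.92 in replicates 1 and 2 and -0.62 in replicates 3 and 4. For AI-9-54 against AI-8-45, 3 were higher (2.88%) and 9 lower (8.65%), against 1.92% and 1.76% of all genes, with Cenpk at 0.28, Troap and Ckap2, 2 spindle-associated proteins, at -0.23 each, and Tuba1c at -0.39. Median differences of this list were -0.04 for AI-9-54 against AI-8-45, -0.03 for AI-9-54 against AI-7-54 and 0.00 for AI-8-45 against AI-7-54. Without the replicate set, limma called 0, 11 and 2 of these 104 genes in these comparisons, against 1.31%, 14.2% and 5.66% of all genes. Of the calls named here, only those of Rcc1 were kept.

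Among genes that control the mitotic programme, E2f4, a DNA-binding subunit of DREAM, averaged 10.55 ± 0.05 after AI-9-54 (SD, n = 4), 10.74 ± 0.03 after AI-8-45 (n = 4) and 11.06 ± 0.03 after AI-7-54 (n = 3). It was called in all 3 comparisons, at -0.19 for AI-9-54 against AI-8-45 (limma adjusted p 0.0184), -0.51 for AI-9-54 against AI-7-54 (adjusted p 8.25e-06) and -0.31 for AI-8-45 against AI-7-54 (adjusted p 0.000796). Against AI-7-54, AI-9-54 also gave lower values of its partner Tfdp1 (-0.43), and higher values of the pocket protein gene Rbl2 (0.42) and of the CDK inhibitor gene Cdkn1b (0.45). Tfdp2, which encodes another DP partner, was called higher in the same comparison (0.35). Against AI-7-54, AI-8-45 gave higher values of the antiproliferative genes Btg2 (0.44) and Btg1 (0.42) and of Cdkn1b (0.35). Mybl2, which encodes B-MYB, was called lower in that comparison (-0.29, adjusted p 0.0066) and not in the others. Foxm1 was measured and was not called in any comparison. Tfdp1 (-0.31), Rbl2 (0.26) and Tfdp2 (0.25) were also called for AI-8-45 against AI-7-54, and Btg1 (0.41) for AI-9-54 against AI-7-54. Btg2 was lower after AI-9-54 than after AI-8-45 (-0.34) and Rb1, the retinoblastoma pocket protein gene, was higher (0.19). Of the 26 regulators, 1 was higher and 2 lower for AI-9-54 against AI-8-45, 6 and 5 for AI-9-54 against AI-7-54, and 7 and 3 for AI-8-45 against AI-7-54. As percentages of the regulators, higher and lower calls made up 3.85% and 7.69%, 23.1% and 19.2%, and 26.9% and 11.5% in the same order, against 1.92% and 1.76%, 8.99% and 9.21%, and 3.59% and 5.19% of all genes. Without the replicate set, limma called 2, 8 and 6 of the 26 regulators, against 1.31%, 14.2% and 5.66% of all genes. The calls of Rb1 (adjusted p 0.0903) and Mybl2 (0.0660) and both Cdkn1b calls (0.0765 for AI-9-54 and 0.304 for AI-8-45) were then lost.

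DNA replication genes act earlier in the cell cycle. For AI-9-54 against AI-8-45, 0 of 40 were called by limma, against 3.68% of all genes, and their median difference was 0.02. At an unadjusted p under 0.05, 6 were higher and 2 lower, against 7.98% and 7.22% of all genes. Against AI-7-54, 21 of 40 were lower after AI-9-54 (median -0.18) and 23 of 40 after AI-8-45 (median -0.20), with 0 higher in both, against 9.21% and 5.19% of all genes lower. Without the replicate set 13 of 40 were called in each, against 14.2% of all genes for AI-9-54 and 5.66% for AI-8-45. Cdc6, which loads the replicative helicase, was at -0.43 after AI-9-54 and -0.50 after AI-8-45, and the thymidine kinase gene Tk1 at -0.48 and -0.42. Both comparisons use the same 3 AI-7-54 arrays. Whether the lists differ from each other was not tested.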

How the data were processed

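Gene expression was measured on single-colour arrays of total RNA from 11 samples. The deposited table holds 1 log2 value per probe set and array, and RMA and Partek 6.6 are named in the submitters' processing notes. The scale was read from the values, which run from 3.23 to 13.8, and the genome build behind them is not given in the sources used here. Arrays have no read depth, and precision is limited by how many there are.

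The array annotation gave 1 symbol to 23521 of 41345 probe sets, several to 1814 and none to 16010. Of the 23521, Entrez identifiers placed 23328 in a GRCm38.p6 gene table. Where a gene had several probe sets, the brightest on average stood for it, leaving 22180 genes. Groups and replicate numbers came from the sample titles.

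The 3 comparisons came from 1 model on all 11 arrays, compound group plus replicate set (1 and 2 against 3 and 4), fitted with limma 3.58.1 under R 4.3.3 using lmFit, contrasts.fit and eBayes (7 residual degrees of freedom, prior 4.75). Tests were two-sided with Benjamini-Hochberg adjustment over all genes. The members, the gene lists and the replicate set were chosen with earlier results of these data known. The fit was tested on simulated data. Same-numbered arrays of AI-9-54 and AI-7-54 had correlations of deviations from the group means of 0.14, 0.16 and 0.12 for replicates 1, 3 and 4. Differently numbered arrays of the same set gave 0.32 (AI-7-54 replicate 1 with AI-9-54 replicate 2) and 0.24 (AI-7-54 replicate 3 with AI-9-54 replicate 4). AI-7-54 replicate 4 with AI-9-54 replicate 3 gave 0.04. These values do not tell a shared number from a shared set, so the replicate number is not a known pairing. The blocked calls in that comparison are given as an alternative.

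Called members were named with their values on every array, up to 10 per comparison by size, or the 5 largest differences where fewer than 5 were called, with up to 4 called genes of each other list and the 5 members that shifted most between replicate sets. A few more called regulators, and Foxm1, were named beside these. Alternatives were 2 other scalings, a filter on dim genes, the mean over probe sets, an intensity trend, only the groups compared, no replicate set, the replicate block, each set alone, and each array left out. Promoter windows came from RefSeq. Plots used Python 3.11.15 with matplotlib 3.10.9.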

Additional observations from a re-analysis of the deposited data

How the results depend on the processing

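Under 21 alternatives per result, no median and no difference of a called member changed sign. Not all of these could change a sign. The mean over probe sets, the intensity trend and the filter on dim genes leave the members' differences as they are. For AI-9-54 against AI-8-45 the same holds for the replicate block and for the fit without the replicate set. Of the members not called, 9 of 35 changed sign under at least 1 alternative for AI-9-54 against AI-8-45, 6 of 31 for AI-9-54 against AI-7-54 (Bub1, Cenpa, Fzr1, Kif11, Kif4 and Mki67) and 16 of 40 for AI-8-45 against AI-7-54, all with differences of at most 0.0578 in size. Without the replicate set, 0 members were called in all 3 comparisons, and the median for AI-9-54 against AI-7-54 was -0.12 and that for AI-8-45 against AI-7-54 was 0.0064. The AI-8-45 against AI-7-54 median, 0.04 with the set, was 0.0251 with median centring and 0.0296 without AI-8-45 replicate 4. The main counts were 6 for AI-9-54 against AI-8-45, 10 for AI-9-54 against AI-7-54 and 1 for AI-8-45 against AI-7-54. In replicates 3 and 4 alone, where fewer arrays enter the fit, they became 0, 1 and 0. That fit called 0.645%, 9.87% and 2.76% of all genes in the same order. Replicates 1 and 2 alone hold 1 AI-7-54 array, so only their member medians are given, at -0.12, -0.08 and 0.06. With the replicate block the counts were 4, 6 and 0 (2.33%, 14.9% and 6.35% of all genes). In the AI-9-54 against AI-8-45 comparison the block also ended the calls of E2f4 (adjusted p 0.0537), Ckap2 (0.0867) and Rb1 (0.115). Same-numbered arrays had correlations from 0.07 to 0.36 for AI-9-54 with AI-8-45 and from -0.02 to 0.45 for AI-8-45 with AI-7-54. In those comparisons too, the block is a shared number and not a known pairing.

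An intensity trend gave 12 calls for AI-9-54 against AI-8-45 and 2 for AI-8-45 against AI-7-54, with 4.75% and 10.5% of all genes called. Testing only the 11078 genes above the array medians also gave 12 and 2, with 11.1% and 23.7% of those genes called. The same filter gave 11 calls for AI-9-54 against AI-7-54, with 39.9% of those genes called. Median centring gave 0 calls for AI-8-45 against AI-7-54, as did a fit of only the 2 groups compared (7.29% and 7.03% of all genes called). Leaving out 1 array gave 4 to 11 calls for AI-9-54 against AI-8-45, with 2.15% to 3.78% of all genes called. It gave 3 to 11 for AI-9-54 against AI-7-54 (13.9% to 19.7% of all genes) and 0 to 3 for AI-8-45 against AI-7-54 (5.08% to 8.55%). For AI-9-54 against AI-7-54 the median then ran from -0.0772 to -0.0601. The cause of these changes was not tested. The number of arrays limits the precision, and AI-7-54 has 1 array in replicates 1 and 2.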
